A study of Mus musculus with 19 samples.

Results

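The comparison set 3 samples of cultured heart fibroblasts against 3 samples of cultured lung fibroblasts, chosen by the organ named in the labels, so 6 of the 19 samples of the series. The series measured gene expression on 1-colour Agilent arrays in fibroblasts from 7 organs of adult mice. The labels give 1 protocol for both organs. The cells came from mice 8 to 10 weeks old, tissue pieces of 2 to 3 mm were digested at 37 °C for 40 min with 0.05% trypsin or with 0.5 mg/mL collagenase, the cells grew for 5 days with 10% serum, and Cy3 label was put into 0.1 µg of RNA. The labels do not say which enzyme was used for which organ, and they give no strain, sex or genotype. They describe no sorting step, so each sample is whatever attached and grew, and the labels do not say whether the replicates came from separate animals. The p-values therefore measure only the spread between samples, which may be technical.

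Fibroblasts are the matrix-building connective tissue cells of an organ. In the embryo the fibroblasts of the heart arise largely from the epicardium, the outer layer of the heart, and those of the lung from mesenchyme around the branching airways, and each of these tissues is patterned by its own transcription factors. Hox genes, ordered along 4 clusters, give cells along the trunk a positional identity, while most of the heart forms ahead of the zone where they are active. Bone morphogenetic proteins (BMPs) are secreted growth signals held in check by secreted antagonists, and interferons are antiviral signals that switch on a shared set of defence genes.

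Values are given as a level, the log2 of a spot's deposited signal less the log2 75th percentile of its array, so that a level of 0 is the signal at that percentile. Levels of different genes come from different probes and are not set against each other. A difference is heart minus lung on the log2 scale ± SE from limma with p-values adjusted by Benjamini-Hochberg, and a gene is called higher or lower in heart where the adjusted p was under 0.05 and the difference at least 1. Each gene was read in 2 ways. The value table, a linear raw spot signal without background subtraction, covers all 6 samples. The processed signal, which the scanner software had background-subtracted, covers heart 2, heart 3, lung 1 and lung 3 and spreads dim genes further apart. The second reading uses the same hybridisations, so it checks the processing and adds no samples.

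One heart sample stood apart. The median raw signal of heart 1 was 1100, against 73 to 87 on the other heart and lung arrays, and 95.5% of its probes lay well above background, against 51.2% to 69.3% on the other 4 with a scanner file. Across genes, which are not independent replicates, heart 1 correlated with heart 2 and heart 3 at r of 0.83 and 0.82, while heart 2 and heart 3 correlated at 0.99 and the lung samples among themselves at 0.99. Of all samples in the series, heart 1 correlated best with kidney 2, another array with high background, at r of 0.92. With heart 1 in the fit the median difference over all genes was -0.40 in the value table, against 0.07 without it and 0.03 in the processed signal, so the median of a gene list is given relative to that of all genes. In the value table of lung 2 the last 4303 of 62976 rows stood 1 row away from their probes, and those values were left out, which leaves 944 of 14659 tested genes without lung 2. Precision is limited by how few arrays there are.

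Heart and lung fibroblasts differed in 1018 of 14659 genes in the value table, 6.94% of those tested, with 308 higher in heart (2.1%) and 710 lower (4.84%). With each array scaled to the median instead, 41.2% of 1164 calls were higher, against 30.3% here. The processed signal called 1422 of 14658 genes (9.7%), 603 higher (4.11%) and 819 lower (5.59%). Both readings called 836 genes in the same direction (5.7%), 280 higher in heart (1.91%) and 556 lower (3.79%), and 0 in opposite directions. These 836 are the genes counted below as called in both. Without regard to a test, all heart samples lay above all lung samples in 1379 genes (9.41%) and below them in 2516 (17.2%), together 26.6%. Leaving out lung 1 or lung 3 brought the value table count to 670 and 684, leaving out lung 2 to 701, and leaving out heart 1 raised the genes higher in heart to 549. Of the 836 genes, 417 (49.9%) kept both calls whichever of the samples was left out, a check of 10 fits. The value table count was 575 with slide as a block and 211 with only the 6 samples in the fit. Among pairs of organs in the value table, heart against lung had the 12th largest count of 21. The largest there, 7375 to 11135 genes, were all pairs with kidney, whose arrays had high background. In the processed signal, fitted without kidney, heart against lung had the 12th largest count of 15.

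**Figure D1:**
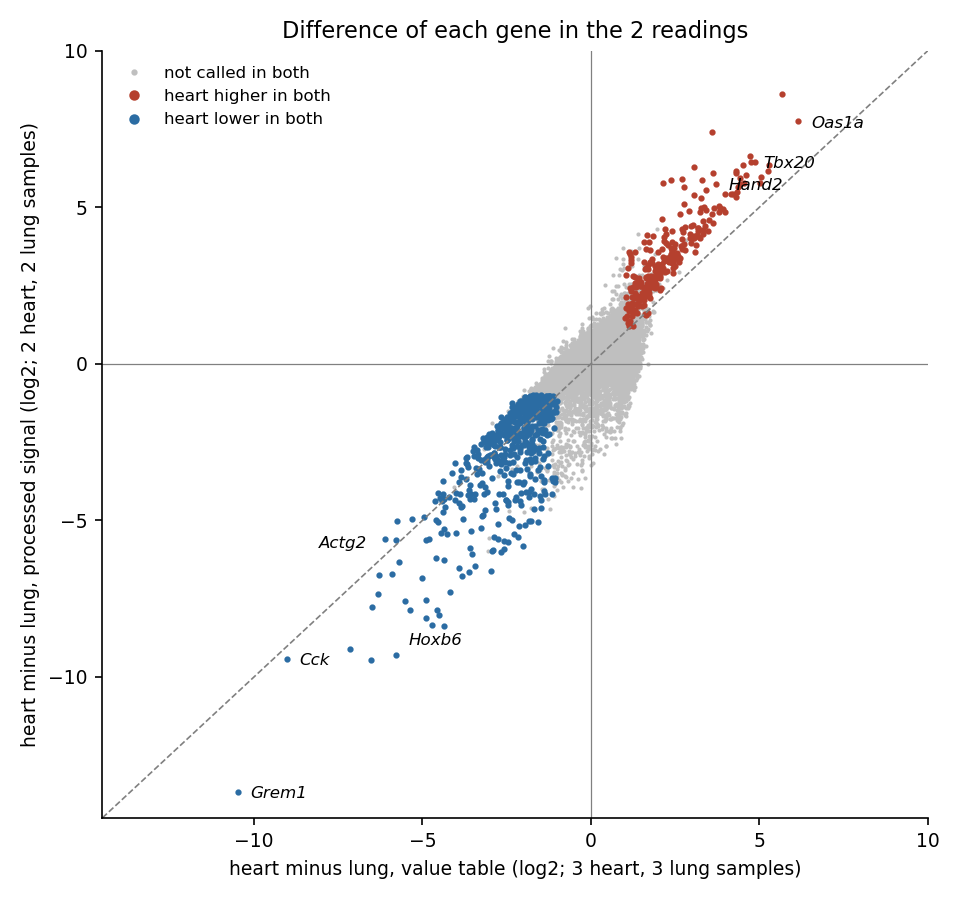
Heart minus lung difference of each tested gene (log2) in the value table (horizontal axis, 3 heart and 3 lung samples) and in the processed signal (vertical axis, 2 and 2), with genes called in both readings coloured and the dashed line marking equal values. Genes called in both readings lie in the upper right and lower left, and Grem1, at -10.49 and -13.68, lies furthest from 0.

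The cardiac transcription factors split into a group higher and a group lower in heart. Of 23 listed, 19 were tested, and 5 were called higher and 4 lower in both readings, against 1.91% and 3.79% of all genes. With only the 6 heart and lung samples in the fit, the value table called 2 higher and 3 lower. Tbx20, a T-box factor of the developing heart, had levels of 1.49, 2.69 and 2.75 in heart 1, 2 and 3, against -2.61, -1.99 and -2.70 in lung 1, 2 and 3. All heart samples lay above all lung samples, by 4.74 ± 0.62 (adjusted p = 9.1e-05, limma) in the value table and 6.46 ± 0.55 (adjusted p = 9.8e-05) in the processed signal. Hand2, a basic helix-loop-helix factor of heart and limb development, had levels of -0.04, 2.12 and 1.91 in heart, against -2.47, -1.95 and -2.71 in lung. It was higher in heart by 3.71 ± 0.43 (adjusted p = 2.9e-05). Tcf21, a factor required for epicardium-derived heart fibroblasts and also used in lung mesenchyme, had levels of 2.38, 4.56 and 4.28 in heart and of 0.46 and 0.56 in lung 1 and lung 3, the only lung values it has. It was higher in heart by 3.24 ± 0.58 (adjusted p = 0.0017). Gata4, a zinc finger partner of these factors, had levels of 0.61, 2.73 and 2.68 in heart and -0.08, -0.01 and -0.58 in lung. Its groups did not overlap, and it was higher by 2.23 ± 0.50 (adjusted p = 0.0087), though the value table call was lost without lung 3, where the adjusted p was 0.050. Nkx2-5, the homeobox factor of the heart muscle lineage, was dim in every sample, with levels of -1.75, -1.57 and -1.24 in heart and -2.99, -3.09 and -3.18 in lung, and was higher by 1.57 ± 0.29 (adjusted p = 0.0017). Its value table call was lost with quantile normalization (0.96, adjusted p = 0.12).

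The 4 members lower in heart were Wt1, Tbx3, Tbx2 and Tbx5. Wt1, a zinc finger factor of epicardium, pleura and other mesothelium, had levels of -2.21, -1.53 and -1.03 in heart, against 4.38, 4.80 and 3.44 in lung, a difference of -5.80 ± 0.58 (adjusted p = 5.2e-06). Tbx3, a T-box repressor used in the cardiac conduction system and in lung mesenchyme, had levels of -1.51, -1.66 and -2.02 in heart and of 1.97 and 2.31 in lung 1 and lung 3, and was lower in heart by -3.87 ± 0.36 (adjusted p = 4.3e-06). Tbx2, its close relative, was lower by -1.84 ± 0.29 (adjusted p = 5.4e-04). Tbx5, the T-box factor of heart, forelimb and lung, had levels of -1.06, -1.64 and -1.93 in heart, against 1.55, 1.42 and 1.62 in lung. Each heart sample thus lay below every lung sample, by -3.07 ± 0.56 (adjusted p = 0.0019). In the processed signal the call of Tbx5 (-4.08 ± 1.1, adjusted p = 0.039) was lost when any 1 of the 4 arrays was left out, with an adjusted p of up to 0.18.

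**Figure D2:**
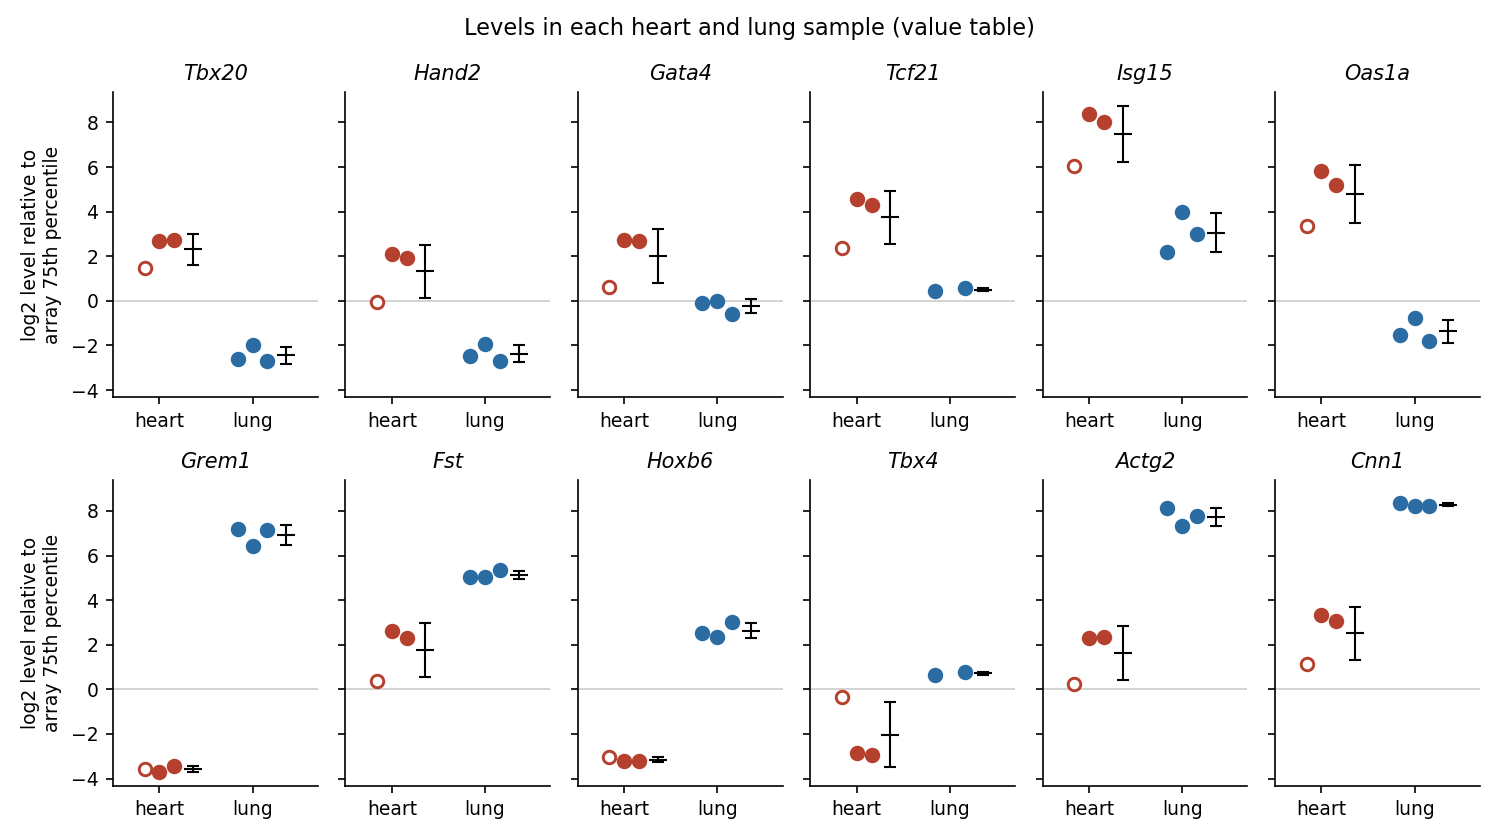
Value table levels of 12 genes (log2 relative to the array's 75th percentile, vertical axis) in the 3 heart and 3 lung samples, 1 panel a gene, with bars for the mean and SD of each group and an open circle for heart 1. Tbx20, Hand2, Gata4, Tcf21, Isg15 and Oas1a lie higher in heart and the other 6 lower, with no overlap of the groups in any panel.

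Most Hox genes tested were lower in heart. Of the 22 Hox genes tested, 15 were called in both readings and all 15 were lower in heart, against 3.79% of all genes. Hoxb6, which lies near the middle of the HoxB cluster, had levels of -3.03, -3.19 and -3.23 in heart, against 2.55, 2.34 and 3.01 in lung. Neither heart 2 nor heart 3 was well above background, and in the processed signal Hoxb6 was at least 149.8-fold lower in heart (fitted difference -9.30 ± 0.24, adjusted p = 2.1e-07). In the value table, where the background is part of the signal, the difference was -5.78 ± 0.30 (adjusted p = 5.7e-09). A bound of this kind sets the brighter group against the lowest signal the dimmer arrays could measure. All bounds given here are of the processed signal and are no bounds for the value table, and the adjusted p beside a bound is that of the processed signal. Hoxa3, used in the pharynx and neck, was above background in both organs, with levels of -3.21, -2.40 and -2.08 in heart and 3.33, 3.31 and 3.41 in lung, a difference of -5.92 ± 0.36 (adjusted p = 3.6e-08). Hoxb5, known for its part in patterning lung branching, was at least 77.3-fold lower in heart (adjusted p = 1.2e-06), Hoxb7 at least 65.2-fold (adjusted p = 9.5e-07) and Hoxa5, which is needed for normal lung development in mice, at least 59.9-fold (adjusted p = 6.5e-06). Their value table differences were -4.56 ± 0.33, -4.91 ± 0.32 and -4.51 ± 0.42. Hoxa2, Hoxa4, Hoxa5, Hoxb5, Hoxb6, Hoxb7 and Hoxb8 passed the filter on dim probes through the lung arrays alone and so had to differ, which makes the count no support of a direction.

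The Hox calls are given along the clusters. In paralogue groups 1 to 4 all 8 of the tested members were called, the greatest difference being the -5.92 of Hoxa3, and 4 of the 12 listed were not above background. In groups 5 to 8, 7 of 10 tested were called, and 1 of 11 listed was not above background. The median difference relative to all genes was -2.41 in the value table and -4.20 in the processed signal for groups 1 to 4, and -3.08 and -6.11 for groups 5 to 8. Of the tested members, 2 in groups 1 to 4 and 6 in groups 5 to 8 passed the filter through lung alone, which pulls these medians down. With probes required well above background on all 4 arrays, the value table called 5 lower in groups 1 to 4 and 1 in groups 5 to 8. The median differences were then -3.19 and 0.45, against -0.48 for all genes. The 3 uncalled members were Hoxa6 and Hoxc5, whose level in heart 1 (1.12 and 0.03) lay above every lung sample while heart 2 and heart 3 lay below, and Hoxd8, whose levels of -2.29, -1.40 and -1.41 in heart and -3.09, -2.45 and -2.58 in lung gave 1.01 ± 0.45 (adjusted p = 0.22). With each array scaled to the median Hoxd8 was called higher in heart in the value table (1.32, adjusted p = 0.047). Hoxb8 was at least 27.1-fold lower in the processed signal (adjusted p = 0.0034), but its value table call (-2.96 ± 0.76, adjusted p = 0.021) was lost without heart 2, heart 3, lung 1 or lung 3, with an adjusted p of up to 0.10. Groups 9 to 13 were mostly not expressed at a measurable level in either organ, with 12 of 16 not above background, and of the 4 tested 0 were called in the value table and Hoxb9 (-3.98 ± 0.57, adjusted p = 0.0017) in the processed signal by limma. Among the Hox cofactors, 1 of 9 was called in both (11.1%), against 5.7% of all genes. It was Meis1, at -2.09 ± 0.49 (adjusted p = 0.012), which without lung 3 had an adjusted p of 0.056.

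**Figure D3:**
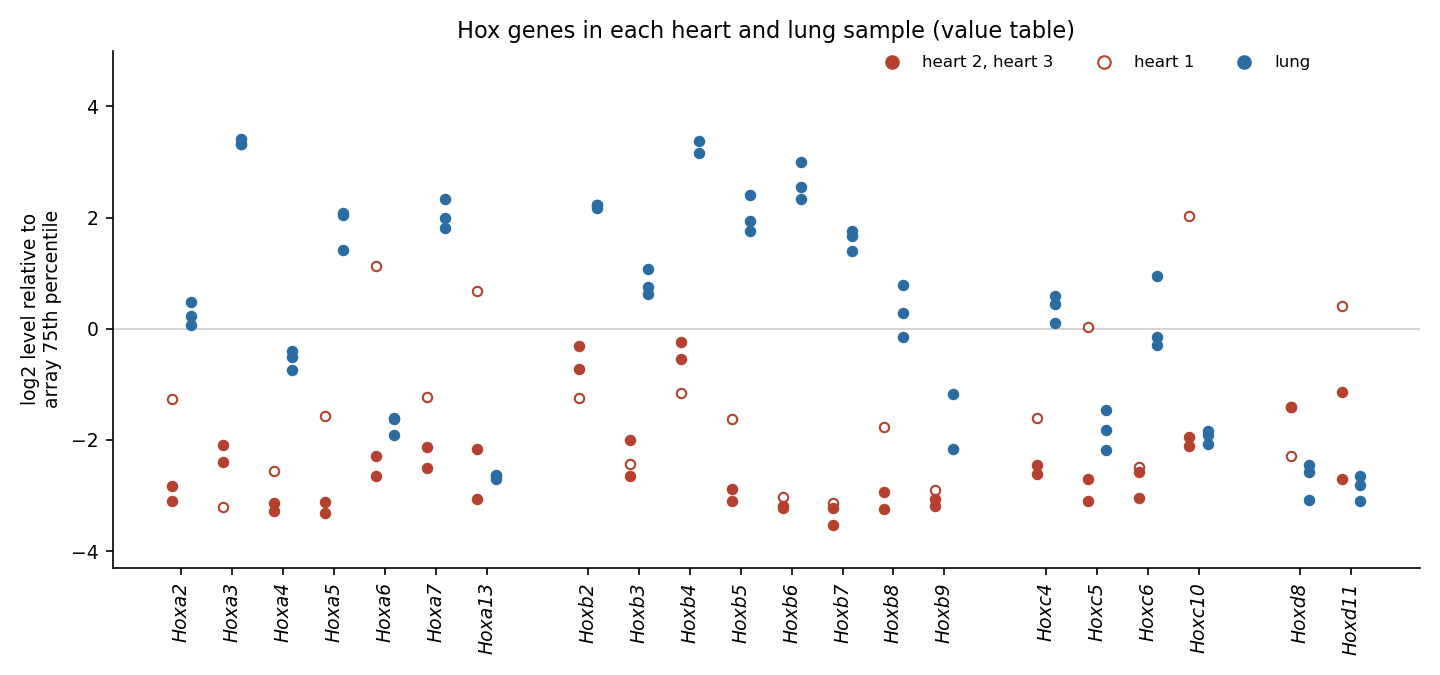
Value table levels (log2 relative to the array's 75th percentile, vertical axis) of tested Hox genes, ordered along the 4 clusters on the horizontal axis, in heart and lung samples, with open symbols for heart 1. Lung samples lie above heart 2 and heart 3 in the called genes plotted, and heart 1 lies above the other 5 samples in Hoxa6, Hoxa13, Hoxc5, Hoxc10 and Hoxd11.

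The regulators and signals of lung mesenchyme were lower in heart where they were called, 12 of 21 tested members and 0 higher, against 3.79% of all genes called lower. With only the 6 heart and lung samples in the fit the value table called 5. Among the 12 are Tbx2, Tbx3, Tbx5, Hoxa5 and Hoxb5, which were counted above with the cardiac factors or the Hox genes. Both calls held with any sample left out in 7 of the 12. The list's median relative to all genes was -1.57 in the value table and -2.41 in the processed signal, and 6 of the 21 were not well above background on either heart array and passed the filter through lung. Tbx4, a T-box factor of lung mesenchyme and hindlimb, had levels of -0.33, -2.83 and -2.92 in heart and 0.66 and 0.77 in lung 1 and lung 3. In the value table it was lower in heart by -2.75 ± 0.69 (adjusted p = 0.022), with heart 1 closer to lung than heart 2 and heart 3 were. In the processed signal, which leaves out heart 1, it was at least 32.8-fold lower (adjusted p = 1.1e-04). Without heart 2, heart 3, lung 1 or lung 3 its value table call was lost (adjusted p of up to 0.14). Foxf2, a forkhead factor of mesenchyme next to gut and airway epithelium, had levels of -2.38, -1.04 and -1.22 in heart, against 1.75, 1.28 and 1.30 in lung (-2.99 ± 0.38, adjusted p = 7.5e-05). Foxp1, a forkhead factor of lung and heart development, differed by -1.97 ± 0.43 (adjusted p = 0.0077) and Osr1, a zinc finger factor of early lung specification, by -2.02 ± 0.33 (adjusted p = 7.2e-04).

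The 2 fibroblast growth factors on that list that act on airway epithelium were both lower in heart. Fgf7 had levels of -0.05, 2.30 and 1.95 in heart and 4.45, 4.12 and 4.71 in lung, a difference of -3.03 ± 0.51 (adjusted p = 8.1e-04). Without heart 3 its call was lost in the processed signal (adjusted p = 0.050). Fgf10, the signal that leads lung branching, was at least 13.7-fold lower in the processed signal (adjusted p = 0.0021), and its value table call (-2.01 ± 0.48, adjusted p = 0.014) was lost without heart 3 or lung 1 (adjusted p of up to 0.10). Of the members not called in both, Gli1, Gli2, Wnt2 and Nkx6-1 were called lower in the processed signal only, and Gata6, a factor of heart and lung that is no member of this list, had -1.25 ± 0.38 (adjusted p = 0.060).

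The gene with the greatest difference in either reading was Grem1, a secreted antagonist that binds BMP2 and BMP4. Its levels were -3.58, -3.69 and -3.43 in heart 1, 2 and 3, against 7.19, 6.42 and 7.16 in lung. It was not well above background on heart 2 and heart 3 and in the processed signal was at least 2805-fold lower in heart, with a fitted difference of -13.68 ± 0.48 (adjusted p = 9.5e-07). The value table difference was -10.49 ± 0.47 (adjusted p = 7.6e-10). Follistatin, Fst, which binds activins and some BMPs, was above background in both organs, with levels of 0.39, 2.60 and 2.31 in heart and 5.04, 5.04 and 5.33 in lung. Heart lay below lung in every sample, by -3.37 ± 0.43 (adjusted p = 7.5e-05). Grem1 and Fst were among the 3 members called in both, all lower in heart, of 13 antagonists tested and 15 listed. That is 23.1% of those tested, against 3.79% of all genes called lower, and all 3 kept both calls with any sample left out. Of the 13, 4 passed the filter on dim probes through lung alone, Grem1 among them, and so could only come out lower in heart in the processed signal. The antagonists Nog (0.36 ± 0.39, adjusted p = 0.51), Chrd (0.43 ± 0.57, adjusted p = 0.58) and Fstl3 (-0.05 ± 0.33, adjusted p = 0.91) did not pass, and Bmper (-1.74 ± 0.49, adjusted p = 0.038) did so in the value table alone.

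Among the BMP ligands themselves, 2 of 10 tested were higher in heart and 0 lower, against 1.91% of all genes called higher. With only the 6 heart and lung samples in the fit both value table calls were lost, with an adjusted p of 0.14 for Bmp6 and 0.28 for Gdf6. Bmp6 had levels of 0.08, 2.03 and 2.14 in heart and -1.04, -0.61 and -2.25 in lung, and was higher by 2.72 ± 0.52 (adjusted p = 0.0025). Gdf6, a ligand of joint and skeletal patterning, had levels of 1.1, 3.26 and 3.63 in heart, against 0.19, 1.24 and -0.62 in lung. Heart 1 lay below lung 2 in Gdf6, so the groups overlapped. Its difference was 2.40 ± 0.55 (adjusted p = 0.010), with an adjusted p of 0.077 without lung 3. Bmp4 had levels of 2.41, 4.63 and 4.57 in heart and 4.10, 3.79 and 3.45 in lung (0.09 ± 0.57, adjusted p = 0.91). Of 18 receptors, transducers and targets 2 were called lower (11.1%), against 3.79% of all genes. They were the receptor Bmpr1b (-2.01 ± 0.51, adjusted p = 0.023, no lung 2) and the homeobox target Msx2 (-1.43 ± 0.32, adjusted p = 0.0096). Without heart 2, heart 3 or lung 1 the call of Bmpr1b was lost (adjusted p of up to 0.33), and without lung 3 that of Msx2 (adjusted p = 0.051). The immediate BMP targets Id1 (-0.28 ± 0.53, adjusted p = 0.71) and Id3 (-0.11 ± 0.51, adjusted p = 0.88) did not pass, and their levels of 2.74 to 5.48 and 5.31 to 7.60 in heart and of 4.40 to 5.03 and 6.61 to 7.01 in lung overlapped.

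Contractile and smooth muscle genes were lower in heart, 13 of 25 tested and 0 higher, against 3.79% of all genes. With only the 6 heart and lung samples in the fit the value table called 6. Of the 25, 2 passed the filter on dim probes through lung alone. The list's median relative to all genes was -1.39 in the value table and -1.92 in the processed signal. Actg2, the gamma actin of smooth muscle, had levels of 0.24, 2.31 and 2.35 in heart, against 8.11, 7.31 and 7.78 in lung. Every heart sample lay far below every lung sample, by -6.10 ± 0.49 (adjusted p = 5.8e-07). Cnn1, the actin-binding calponin, had levels of 1.15, 3.32 and 3.08 in heart and 8.35, 8.24 and 8.23 in lung, a difference of -5.76 ± 0.46 (adjusted p = 5.8e-07). Mylk, the kinase that starts smooth muscle contraction, had levels of -1.90, -0.86 and -0.95 in heart and 3.64, 3.80 and 3.73 in lung (-4.96 ± 0.34, adjusted p = 6.2e-08). The remaining calls include the smooth muscle myosin Myh11 (-4.59 ± 0.44, adjusted p = 3.1e-06), the integrin Itga8 (-4.63 ± 0.64, adjusted p = 1.8e-04, no lung 2) and the intermediate filament desmin, Des (-3.79 ± 0.63, adjusted p = 7.6e-04). Of the 13 calls 11 held with any sample left out. Those of Tpm2 were lost without heart 1, lung 1, lung 2 or lung 3 in the value table and without heart 3 in the processed signal (adjusted p of up to 0.10), and that of Actc1 in the value table without lung 1 or lung 3 (adjusted p of up to 0.12).

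The 2 contractile genes most used as myofibroblast markers did not pass. Acta2, alpha smooth muscle actin, had levels of 6.58, 8.98 and 8.84 in heart, against 9.42, 9.43 and 9.48 in lung (-1.31 ± 0.47, adjusted p = 0.12, and -0.47 ± 0.15, adjusted p = 0.080, in the processed signal). Tagln, the actin-binding transgelin, had 6.52, 9.05 and 8.87 in heart and 9.21, 9.19 and 9.24 in lung (-1.07 ± 0.49, adjusted p = 0.23). In both genes all heart samples lay below all lung samples, and heart 1 was far below heart 2 and heart 3. Serum response factor, Srf, which binds CArG boxes of contractile genes, had -1.33 ± 0.48 (adjusted p = 0.12), and its cofactor Mrtfa was lower by -2.07 ± 0.42 (adjusted p = 0.0040). The cofactor Myocd had -0.06 ± 0.43 (adjusted p = 0.92).

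The promoters of contractile genes were searched for the CArG box on both strands in the 250 bases before and 50 bases after the gene start, from RefSeq on GRCm38.p6. Of 21 tested members with a promoter given there, 5 held a box (23.8%), against 1.7% of 11644 tested genes with a promoter. The 250 bases before the start of Myl9 (chr2:156775214-156775463, + strand), a regulatory myosin light chain that was lower in heart by -2.28 ± 0.51 (adjusted p = 0.0086), and of Actc1 (chr2:114052876-114053125, - strand), the cardiac actin, are shown as 2 called members that hold one, chosen after the search. The box is in capitals, 161 bases before the start in Myl9 and 47 in Actc1.
Myl9: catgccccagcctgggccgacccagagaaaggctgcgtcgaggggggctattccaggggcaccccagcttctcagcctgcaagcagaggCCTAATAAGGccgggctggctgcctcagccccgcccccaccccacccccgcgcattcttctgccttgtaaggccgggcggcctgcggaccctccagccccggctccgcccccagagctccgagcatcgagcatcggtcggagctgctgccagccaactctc
Actc1: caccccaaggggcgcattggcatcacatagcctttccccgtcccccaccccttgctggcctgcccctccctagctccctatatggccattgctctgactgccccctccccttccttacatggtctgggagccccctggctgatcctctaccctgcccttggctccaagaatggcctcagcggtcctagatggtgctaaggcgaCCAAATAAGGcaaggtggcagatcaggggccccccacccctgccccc
A match describes the letters of this window and was not tested as a binding site.

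Interferon-stimulated genes were higher in heart in 28 of 35 tested members and lower in 0, against 1.91% of all genes called higher. With only the 6 heart and lung samples in the fit the value table called 17. In the processed signal 34 of the 35 were called, and 24 of the 28 kept both calls with any sample left out. The list's median difference relative to all genes was 3.74 in the value table and 4.52 in the processed signal. Isg15, a ubiquitin-like protein attached to other proteins in antiviral defence, had levels of 6.04, 8.37 and 8.04 in heart, against 2.21, 3.98 and 2.98 in lung. It was higher in heart by 4.42 ± 0.59 (adjusted p = 1.1e-04). Oas1a, an oligoadenylate synthetase that senses double-stranded RNA, had levels of 3.34, 5.83 and 5.21 in heart and -1.54, -0.77 and -1.78 in lung, a difference of 6.16 ± 0.66 (adjusted p = 1.2e-05). Of the same family, Oas2 was not well above background on lung 1 and lung 3, with value table levels of 1.56, 3.95 and 3.58 in heart. It was higher by 5.67 ± 0.57 in the value table (adjusted p = 5.6e-06) and at least 367.1-fold higher in the processed signal (adjusted p = 6.1e-05), and it passed the filter on dim probes through heart alone. Ifit3, an antiviral protein with tetratricopeptide repeats, had levels of 3.53, 5.78 and 5.39 in heart and -0.62, 1.09 and 0.62 in lung (4.54 ± 0.61, adjusted p = 1.2e-04). Oas1a, Oas1f and Oas1g, and Ifit3 and Ifit3b, are near-identical genes whose probes may share signal, so the split within each family is uncertain.

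Regulators of the response were higher as well. Irf7, the transcription factor that amplifies interferon production, had levels of 2.38, 4.19 and 3.94 in heart, against -1.14, -0.42 and -0.83 in lung (4.30 ± 0.45, adjusted p = 9.3e-06). Usp18, the protease that removes ISG15 and dampens the receptor, was higher by 4.87 ± 0.57 (adjusted p = 3.0e-05), Zbp1, a sensor of left-handed nucleic acid, by 4.61 ± 0.54 (adjusted p = 3.2e-05), Rtp4 by 4.38 ± 0.59 (adjusted p = 1.3e-04) and Bst2, which tethers budding viruses, by 3.80 ± 0.53 (adjusted p = 1.7e-04). Heart 1 lay below heart 2 and heart 3 in each of the genes named here with its levels and still above every lung sample. Of the 7 tested members without both calls, 6 were called in the processed signal only, Ifit2, Ifi35, Ddx58, Gbp2 and Eif2ak2 among them, and Isg20 was called in neither (0.07 ± 0.41, adjusted p = 0.91 in the value table, and 0.69 ± 0.21, adjusted p = 0.057 in the processed signal). Cxcl10, an interferon-induced chemokine, was higher by 2.30 ± 0.57 (adjusted p = 0.017), a value table call lost without heart 2, heart 3, lung 1 or lung 3 (adjusted p of up to 0.098). Summed over the 35 members, the level was 290.3, 1444 and 1205 times the 75th percentile signal in heart 1, 2 and 3, against 78.2, 114.7 and 80.3 in lung.

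The promoters of 4 of the called members that hold the interferon-stimulated response element are shown, a choice made after the search. The element was sought as TTTCNNTTTC or its complement GAAANNGAAA in the same windows, with overlapping matches counted. Of 26 tested interferon-stimulated genes with a promoter given there, 15 held a match (57.7%), as did 12 of the 20 called in both (60%), against 3.76% of the 11644 tested genes and 3.44% of all 32851 windows. Each sequence is the 250 bases before the RefSeq start on GRCm38.p6, 5′ to 3′ on the strand of the gene, with the matches in capitals. Isg15 (chr4:156200819-156201068, - strand) holds 3 overlapping matches, the first 78 bases before the start, and Oas1a (chr5:120907526-120907775, - strand) holds 2, the first 20 bases before it. Ifit3 (chr19:34583279-34583528, + strand) holds 2 separate matches 156 and 122 bases before the start, and Bst2 (chr8:71537473-71537722, - strand) holds 2 overlapping ones from 130 bases before it.
Isg15: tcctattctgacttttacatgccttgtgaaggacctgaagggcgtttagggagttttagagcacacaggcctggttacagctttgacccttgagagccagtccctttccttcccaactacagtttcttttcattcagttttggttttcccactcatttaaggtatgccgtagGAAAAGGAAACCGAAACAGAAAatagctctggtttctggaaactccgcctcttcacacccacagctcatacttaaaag
Oas1a: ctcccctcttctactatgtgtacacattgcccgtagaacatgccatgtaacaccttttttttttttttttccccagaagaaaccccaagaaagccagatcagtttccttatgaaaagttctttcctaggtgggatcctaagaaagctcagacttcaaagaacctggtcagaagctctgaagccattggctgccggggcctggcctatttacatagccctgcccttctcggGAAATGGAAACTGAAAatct
Ifit3: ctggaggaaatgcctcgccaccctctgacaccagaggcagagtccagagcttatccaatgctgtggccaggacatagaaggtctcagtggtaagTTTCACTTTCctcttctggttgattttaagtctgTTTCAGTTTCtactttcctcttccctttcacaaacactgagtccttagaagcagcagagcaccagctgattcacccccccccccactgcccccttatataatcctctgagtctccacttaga
Bst2: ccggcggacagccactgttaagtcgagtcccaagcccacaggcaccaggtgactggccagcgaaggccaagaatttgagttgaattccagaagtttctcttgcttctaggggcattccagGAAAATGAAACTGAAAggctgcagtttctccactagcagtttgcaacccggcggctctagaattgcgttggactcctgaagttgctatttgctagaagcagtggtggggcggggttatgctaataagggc
These 4 windows share the element and differ in its number and distance from the start, and no binding was measured.

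**Figure D4:**
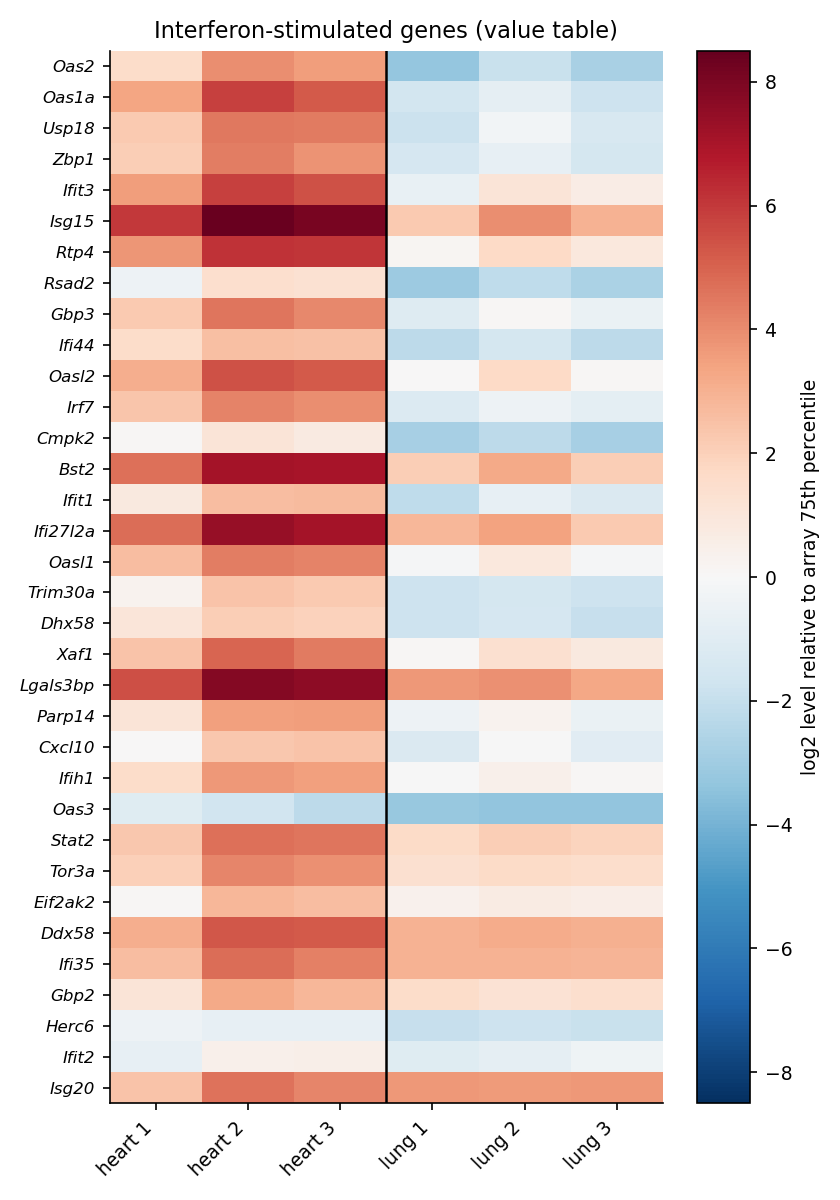
Value table levels (log2 relative to the array's 75th percentile, colour) of tested interferon-stimulated genes (rows) in heart 1, 2 and 3 and lung 1, 2 and 3 (columns). The heart columns are redder, hence higher, than the lung columns in most rows, and heart 1 lies between heart 2 and the lung samples in most.

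Upstream of these genes few members were called. Of 20 tested interferons, receptors and upstream factors, 1 was higher in both readings and 1 lower, against 1.91% and 3.79% of all genes. Both value table calls were lost with only the 6 heart and lung samples in the fit and with slide as a block. Of the 20, 2 passed the filter on dim probes through heart alone, Ifnb1 among them, and so could only come out higher in heart in the processed signal. Ifnb1, interferon beta, had levels of -1.38, -1.47 and -2.63 in heart, against -3.65, -3.28 and -3.48 in lung, where it was not well above background. It was higher in heart by 1.64 ± 0.39 in the value table (adjusted p = 0.013) and at least 3.62-fold in the processed signal (adjusted p = 0.0081), and its call was lost without lung 1 in both readings and without lung 3 in the value table (adjusted p of up to 0.067). Ifngr2, a chain of the interferon gamma receptor, was lower by -1.95 ± 0.46 (adjusted p = 0.013), with an adjusted p of 0.058 without lung 3. Irf9, the DNA-binding part of the complex formed after interferon binding, had 1.07 ± 0.43 (adjusted p = 0.18) in the value table and 2.01 ± 0.18 (adjusted p = 1.4e-04) in the processed signal. Ifnar1, a chain of the type I receptor, had -1.12 ± 0.38 (adjusted p = 0.094).

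Genes of MHC class I antigen presentation were higher in heart in 8 of 16 tested members and lower in 0, against 1.91% of all genes called higher, and in 13 of 16 in the processed signal, against 4.11%. The value table called 4 with slide as a block and 2 with only the 6 heart and lung samples in the fit. The immunoproteasome subunits Psmb8 (2.81 ± 0.46, adjusted p = 6.6e-04) and Psmb9 (2.96 ± 0.37, adjusted p = 6.0e-05), the peptide transporter Tap1 (2.11 ± 0.40, adjusted p = 0.0026) and the activator of class I genes Nlrc5 (3.30 ± 0.45, adjusted p = 1.3e-04) kept their calls with any sample left out. The class I heavy chains, whose probes may share signal among related genes, did not. H2-K1 had levels of 3.65, 6.0 and 5.85 in heart and 3.33, 3.62 and 3.10 in lung (1.82 ± 0.48, adjusted p = 0.026), and without any 1 sample other than heart 1 its adjusted p in the value table rose past 0.05, to at most 0.11. From the value table, 4 to 6 of the 16 were called without any 1 of those 5 samples and 12 without heart 1. The light chain B2m had 0.46 ± 0.48 (adjusted p = 0.48) in the value table and 1.33 ± 0.19 (adjusted p = 0.0017) in the processed signal.

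**Figure D5:**
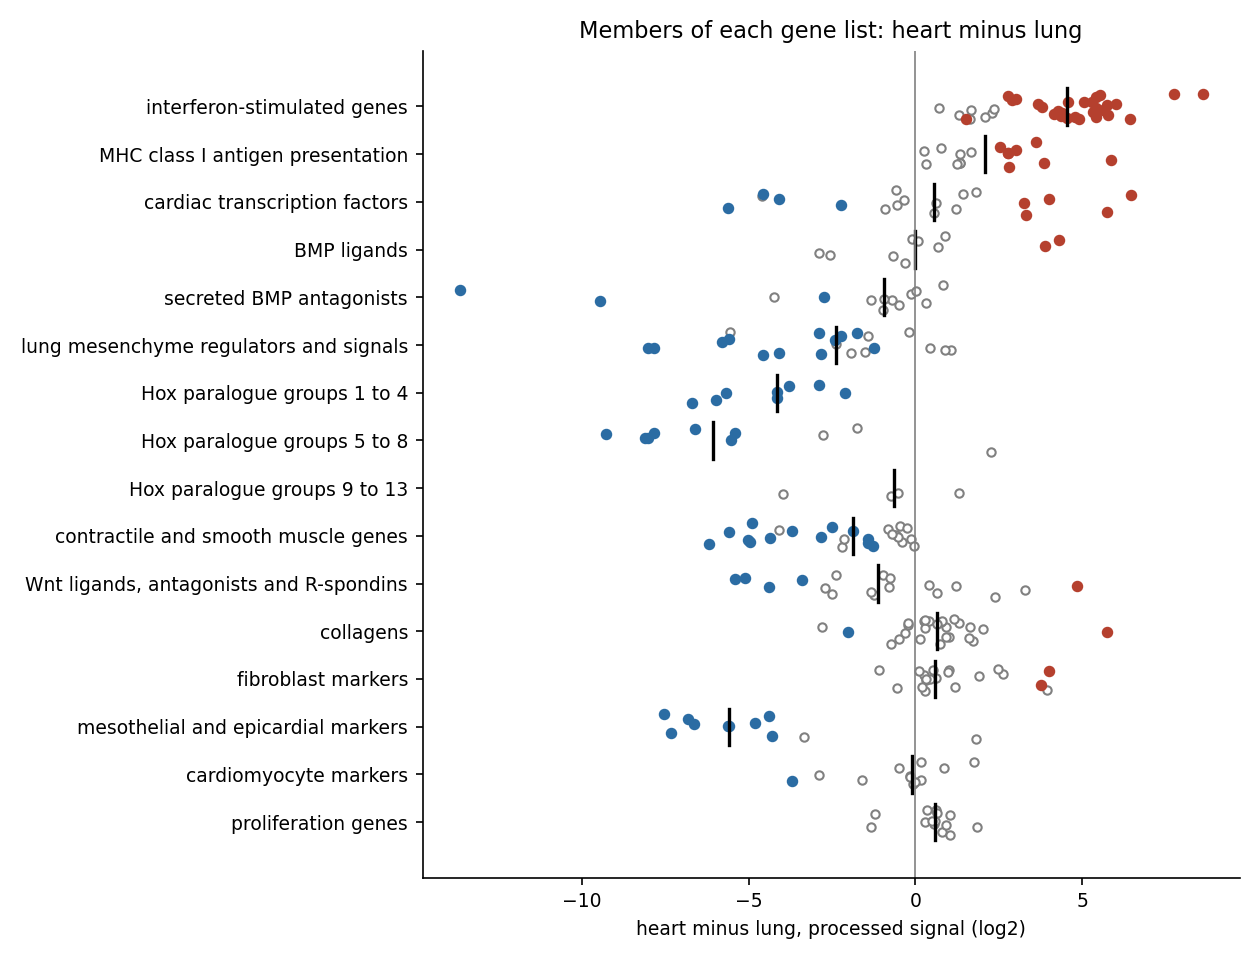
Heart minus lung difference in the processed signal (log2, horizontal axis) of the tested members of 16 gene lists (rows), filled where called in both readings and open where not, with a black bar for the list's median. Interferon-stimulated and MHC class I genes lie to the right, and Hox groups 1 to 8, contractile, mesothelial and lung mesenchyme genes to the left.

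Secreted Wnt modulators differed in both directions, 1 of 18 tested higher in heart and 4 lower, against 1.91% and 3.79% of all genes. Of the 18, 3 passed the filter on dim probes through lung alone. Frzb, a secreted Wnt antagonist, had levels of 2.42, 4.68 and 4.64 in heart, against 0.29, -0.05 and -0.46 in lung (3.99 ± 0.47, adjusted p = 3.4e-05). The R-spondins, which strengthen Wnt signals at the receptor, made up 3 of the 4 lower in heart. Rspo1 had levels of -1.61, -1.63 and -1.52 in heart and 2.56, 3.96 and 1.97 in lung (-4.41 ± 0.47, adjusted p = 1.2e-05). Rspo3 had levels of -0.68, -1.67 and -1.88 in heart and 3.05, 3.31 and 2.78 in lung (-4.46 ± 0.48, adjusted p = 1.2e-05). Rspo2 was lower by -2.76 ± 0.45 (adjusted p = 6.3e-04), a call lost in the processed signal without any 1 of its 4 arrays (adjusted p of up to 0.17). Dkk3, a secreted relative of the Dickkopf antagonists, was the other, lower by -3.87 ± 0.39 (adjusted p = 6.8e-06). Of 17 Wnt receptors and targets, 2 were called (11.8%), both lower, against 3.79% of all genes called lower. They were the receptor Fzd7 (-1.81 ± 0.27, adjusted p = 2.6e-04) and the feedback inhibitor Nkd1 (-2.69 ± 0.38, adjusted p = 1.9e-04), with an adjusted p of 0.056 for Nkd1 in the processed signal without lung 3.

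Chemokines and cytokines were called in 5 of 22 tested members, 2 higher and 3 lower, against 5.7% of all genes called. Of the 22, 4 passed the filter on dim probes through lung alone, Il1rl1 among them, and so could only come out lower in heart in the processed signal. With only the 6 heart and lung samples in the fit the value table called 1 in each direction. Ccl5, which attracts T cells, had levels of 0.77, 3.14 and 2.88 in heart and -0.50, 0.27 and 0.02 in lung (2.34 ± 0.46, adjusted p = 0.0036). Cxcl5, which attracts neutrophils, had levels of 2.81, 5.52 and 5.64 in heart, against 1.14, -0.82 and -1.47 in lung. Lung 1 lay above the other lung samples. It was higher by 5.04 ± 0.95 (adjusted p = 0.0024), and its processed signal call (5.97 ± 1.69, adjusted p = 0.048) was lost without any 1 of its 4 arrays (adjusted p of up to 0.28). Il1rl1, the interleukin 33 receptor, was at least 25.7-fold lower in heart in the processed signal (adjusted p = 7.8e-05). Cxcl12, the ligand of CXCR4, was lower by -2.70 ± 0.52 (adjusted p = 0.0026), and its processed signal call too was lost without any 1 array (adjusted p of up to 0.10). Interleukin 11, Il11, was lower by -1.93 ± 0.48 (adjusted p = 0.018), with its call lost without heart 1, heart 2, heart 3 or lung 1 in at least 1 of the readings (adjusted p of up to 0.21).

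Among the collagens most did not pass, and 2 of 27 tested were called (7.41%), a share near the 5.7% of all genes. Col2a1, the collagen of cartilage, had levels of 1.64, 4.33 and 4.56 in heart, against -0.53, -2.53 and -1.51 in lung, and was higher by 5.03 ± 0.67 (adjusted p = 1.0e-04). Sox9, the factor that drives cartilage genes, was higher as well, with levels of 0.71, 3.14 and 3.43 in heart and -0.31, 0.04 and 0.22 in lung (2.45 ± 0.52, adjusted p = 0.0064). These were the 2 called of 8 tested cartilage and tendon genes, against 1.91% of all genes called higher, and 6 of the 14 listed were not above background. Col6a3, a chain of the microfibrillar collagen VI, was lower by -2.71 ± 0.52 (adjusted p = 0.0028). Col1a1, the main chain of collagen I, had levels of 5.19, 7.37 and 7.48 in heart and 7.09, 7.39 and 7.18 in lung (-0.54 ± 0.45, adjusted p = 0.40). Of 32 other matrix proteins 4 were higher and 1 lower, against 1.91% and 3.79% of all genes. With only the 6 heart and lung samples in the fit all of these lost their value table call. Fndc1, a fibronectin-domain protein, had levels of 4.28, 6.57 and 6.47 in heart and 2.72, 3.03 and 2.40 in lung (3.06 ± 0.50, adjusted p = 7.3e-04), and the matricellular thrombospondin Thbs1 was lower by -2.41 ± 0.49 (adjusted p = 0.0043). The higher calls of Lum, Epyc and Lama4 were each lost in the value table when single samples were left out, Epyc without lung 1 (adjusted p = 0.059) and Lama4 without any 1 sample other than heart 1 (adjusted p of up to 0.16), and that of Lum (2.68 ± 0.75, adjusted p = 0.036) in both readings (adjusted p of up to 0.24).

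Apart from these lists, the genes with the greatest differences named by the rule were of mixed function. Hsd11b1, which regenerates active glucocorticoid, had levels of 3.41, 5.93 and 5.36 in heart, against -0.18, -0.30 and -0.71 in lung (5.30 ± 0.67, adjusted p = 6.9e-05). Rhox5, an X-linked homeobox gene known from the reproductive tract, was higher by 5.24 ± 0.50 (adjusted p = 3.1e-06). Pf4, a platelet chemokine, was higher by 4.72 ± 0.77 (adjusted p = 6.7e-04), with an adjusted p of 0.058 in the processed signal without lung 3. Cck, the precursor of the gut and brain peptide cholecystokinin, came second to Grem1 in the value table, with levels of -2.30, -1.70 and -1.39 in heart and 7.53, 7.13 and 7.05 in lung (-9.03 ± 0.56, adjusted p = 3.6e-08). Angptl7, a secreted angiopoietin-like protein, was lower by -7.14 ± 0.80 in the value table (adjusted p = 2.1e-05) and at least 339.7-fold lower in the processed signal (adjusted p = 0.0013). Cd24a, a small surface glycoprotein, was lower by -6.29 ± 0.42 (adjusted p = 6.2e-08), Cyp2s1, a cytochrome P450 enzyme, by -5.70 ± 0.51 (adjusted p = 1.8e-06), and Gdpd2, a glycerophosphodiesterase, by -5.52 ± 0.77 (adjusted p = 2.1e-04, no lung 2).

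All 20 fibroblast markers were above background on heart 2, heart 3, lung 1 and lung 3. Of these 20, 2 were called higher in heart in both readings and 0 lower, against 1.91% of all genes called higher. The processed signal called 6 higher, with a list median of 0.54 relative to all genes (0.10 in the value table). Pdgfra had levels of 1.45, 3.93 and 4.01 in heart and 3.34, 3.24 and 3.40 in lung (-0.19 ± 0.53, adjusted p = 0.79). The summed level of the 16 markers with a value in every sample was 345.4, 1747 and 1792 in heart and 1514, 1623 and 1610 in lung. Heart 2 and heart 3 thus lay above every lung sample and heart 1 far below. Markers of other cell types were present at unequal levels. Of 11 tested mesothelial markers, which mark the lining of pleura and pericardium, 9 were lower in heart and 0 higher, against 3.79% of all genes called lower. Of the 11, Upk1b, Gpm6a and Bnc1 passed the filter on dim probes through lung alone and so could only come out lower in heart in the processed signal. Summed over 10 of them, the level was 5.24, 5.94 and 6.18 times the 75th percentile signal in heart, against 87.9, 123.1 and 41.3 in lung, so lung 3 lay below lung 1 and lung 2. Msln, mesothelin, had levels of -0.83, -1.76 and -2.43 in heart, against 5.00, 5.46 and 3.52 in lung (-6.33 ± 0.89, adjusted p = 1.8e-04), a call lost in the processed signal without heart 3 or lung 1 (adjusted p of up to 0.066). Upk1b, a uroplakin of mesothelium, was at least 106.7-fold lower in heart in the processed signal (adjusted p = 2.3e-04), Gpm6a at least 44.3-fold (adjusted p = 5.2e-05) and the zinc finger factor Bnc1 at least 23.6-fold (adjusted p = 9.7e-05). In bulk samples fewer cells of a type and less RNA per cell cannot be told apart, and the part of these cells in the differences above was not tested. Wt1 and Rspo1 described above are members of this list.

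Of 12 tested lung epithelial markers 4 were lower in heart, against 3.79% of all genes called lower. They were the keratins Krt18 and Krt8 and the factors Foxa2 and Hopx. The listed genes Sftpa1, Sftpb, Scgb1a1, Nkx2-1 and Muc1 were not above background. Of the 12 tested, 11 were well above it on both lung 1 and lung 3 and 3 on both heart 2 and heart 3. Krt8, Foxa2, Hopx and 1 uncalled member passed the filter on dim probes through lung alone and so could only come out lower in heart in the processed signal. The list's medians differed in sign, at 0.44 relative to all genes in the value table and -2.11 in the processed signal. Its median difference was -1.07 between heart 2 and lung 1, which shared a slide, and 1.66 between heart 1 and lung 3, which shared another. Krt18, a keratin that mesothelium also makes, had levels of 0.14, -1.56 and -2.29 in heart, against 5.81, 5.76 and 4.23 in lung (-6.50 ± 0.67, adjusted p = 7.2e-06). Krt8, its partner, was lower by -5.38 ± 0.90 in the value table (adjusted p = 9.9e-04, no lung 2) and at least 168.5-fold lower in the processed signal (adjusted p = 0.0026). Summed over 11 genes of this list, the level was 12.1, 18.5 and 16.8 in heart and 78.0, 72.6 and 37.4 in lung, again lowest in lung 3. The value table calls of Foxa2 and Hopx were lost without single samples (adjusted p of up to 0.11 and 0.16).

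Of 12 tested cardiomyocyte markers 1 was called (8.33%), Actc1, lower in heart, against 5.7% of all genes called. The listed genes Myl3, Myl7, Ryr2, Pln, Ckm and Mb were not above background. Of the 12 tested, 7 were well above it on both heart 2 and heart 3 and 10 on both lung 1 and lung 3. The summed level of the 12 was 14.1, 25.5 and 20.3 in heart, against 9.99, 14.1 and 15.7 in lung. Of 13 tested endothelial markers 2 were higher in heart in both readings, against 1.91% of all genes called higher. Of these 2, only Tek kept both calls with any sample left out, and the other was lost in both readings (adjusted p of up to 0.14). Besides these, 1 other was called lower in the value table alone and 2 in the processed signal alone. Of the 13, 2 passed the filter on dim probes through lung alone. The list's median relative to all genes was -0.33 in the value table and -1.33 in the processed signal, with summed levels of 11.3, 22.3 and 21.1 in heart and 32.2, 23.8 and 15.8 in lung. The receptor Tek had levels of -0.61, 0.00 and 0.04 in heart and -2.66, -3.08 and -2.92 in lung (2.69 ± 0.37, adjusted p = 1.5e-04). Of 14 tested macrophage and leukocyte markers 1 was called (7.14%), a share near the 5.7% of all genes. It was Cd14, lower in heart by -1.89 ± 0.40 (adjusted p = 0.0055). Over the 12 with a value in every sample the summed levels were 12.3, 25.9 and 36.6 in heart and 41.4, 42.2 and 36.7 in lung. The processed signal call of Cd14 was lost without heart 2, heart 3 or lung 1 (adjusted p of up to 0.11). Among 8 tested pericyte and Schwann cell markers 1 was called (12.5%), against 5.7% of all genes. It was the proteoglycan Cspg4, lower by -3.28 ± 0.41 (adjusted p = 6.3e-05). Of 14 tested proliferation genes 0 were called in both readings, 2 in the value table alone and 2 in the processed signal alone by limma, and Mki67 had levels of 2.62, 5.07 and 5.05 in heart and 4.79, 4.56 and 4.69 in lung (-0.43 ± 0.47, adjusted p = 0.50).

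The slides of the arrays were compared where a slide held both organs. Slide 1 held heart 2 and lung 1, and slide 2 held heart 1 and lung 3, while heart 3 was on slide 3, and the slide of lung 2 was not known here. All 836 genes called in both readings had the same direction on slide 1 and 834 on slide 2, values that come from the arrays on which they were called. The median difference over the 35 interferon-stimulated genes was 4.21 on slide 1 and 2.27 on slide 2, where that of all genes was 0.07 and -1.42. Over the 25 contractile genes it was -1.42 and -2.80. With slide as a block in the fit, which leaves out lung 2, 15 of the genes named here lost their value table call, among them Sox9, Foxp1, Myl9, Meis1 and H2-K1.

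The genes called in both readings were set beside the other organs. Only called genes were counted, so no share over all tested genes stands beside these counts. In the processed signal liver differed from lung in 139 genes, the fewest of 15 pairs of organs, and from heart in 1503. The part of liver in the counts was not tested. In the processed signal of 9 arrays from gonad, liver, skin and tail, the median of these arrays lay nearer to lung than to heart in 245 of the 280 genes higher in heart and in 436 of the 556 lower. Heart 2 and heart 3 both lay beyond all 9 arrays on the same side in 215 and 300 of these genes. Lung 1 and lung 3 both did so in 23 and 86. Tbx20 averaged 3.01 in heart and -3.45 in lung, with the highest of the 9 other arrays at -1.06. Grem1 averaged -6.46 in heart and 7.22 in lung, with the other arrays from 2.98 to 6.18, so heart lay below and lung above all of them. Hoxb6 averaged -6.31 in heart and 2.99 in lung, with the others from 1.03 to 1.85. Actg2 averaged 2.44 in heart and 8.04 in lung, within the other arrays' range of 5.46 to 8.88 for lung and below it for heart. Isg15 averaged 8.45 in heart and 2.70 in lung, and its 9 other arrays ran from 1.64 to 6.22, with a tail mean of 5.92.

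Some of the genes had their level in other organs too. Hand2 averaged 1.98 in heart and -3.76 in lung, and 2.18 in liver. Gata4 averaged 3.00 in heart and -0.32 in lung, and 3.38 in gonad and 2.12 in liver. Tbx4 averaged -4.78 in heart and 0.80 in lung, and 1.26 in tail. Wt1 averaged -1.71 in heart and 3.93 in lung, with 4.42 in gonad and 4.04 in liver but -3.88 in skin and -5.49 in tail. These organ means are descriptions of 2 or 3 arrays each, and the order of neighbouring organs was not tested.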

How the data were processed

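Cultured fibroblasts were measured on 1-colour Agilent arrays of 62976 spots. The processed and raw spot intensity deposited by the authors came from Agilent Feature Extraction 11.0.1.1, per the file headers, with the processed intensity background-subtracted by that software. The value table holds a deposited intensity too, and on 18 arrays it matched the raw median of every spot, so it is linear and not scaled between arrays, and it alone holds lung 2. The deposited flags (0 or 1, another unit) mark spots well above background and outliers. The last rows of lung 2 stood 1 row off, with a correlation to lung 1 of 0.0043 as deposited and 0.99 after moving them by 1 row, the best of 121 shifts. They were set to missing, which departs from the analysis as first laid down.

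Of 55681 biological probes 27229 had a RefSeq symbol, for 20656 genes, and 28452 had none and were left out. A gene was tested if a probe lay well above background on at least 2 of heart 2, heart 3, lung 1 and lung 3, using the probe with the highest mean, which left out 5997 genes. Limma 3.58.1 in R 4.3.3 was fitted to log2 of each deposited intensity less the array's 75th percentile. The value table fit used 19 samples and 7 organ means. The processed signal fit used 13 arrays and 6 organ means, without gonad 3, heart 1, kidney 1, kidney 2 and tail 2, whose background was high. Outlier spots were set to missing there. The spread is thus shared with samples of other organs. The fits were tested on simulated data.

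The members and 28 gene lists were chosen with earlier results of these data known. Named genes are list members and, in each direction, the 15 largest differences called in both readings without overlap of the groups, leaving out predicted genes. Those described singly were chosen from these after seeing their values. Some list members are counted but not reported singly here, and are not drawn by name. Tables were made in Python 3.11.15 (pandas 2.3.3, numpy 2.4.6) and figures with matplotlib 3.10.9. Alternatives were other scaling, background correction, filters, probe rules, blocks, sample sets and thresholds.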

Additional observations from a re-analysis of the deposited data

How the results depend on the processing

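The count of 1018 genes in the value table (308 higher, 710 lower) became 575 with slide as a block (162 and 413), 487 at a difference of at least 2 (149 and 338), and 211 with only the 6 samples in the fit (54 and 157), which leaves fewer samples for the spread. The higher genes became 479 with median scaling, 617 without the 5 high-background arrays (48.1% of calls higher) and 482 without both heart 1 and lung 2. Leaving out 1 sample gave 670 to 1316 genes, 185 to 549 higher and 472 to 1042 lower, the highest share of higher calls (46.3%) being without heart 1. The 1422 genes of the processed signal (603 higher, 819 lower) became 779 at a difference of at least 2 (319 and 460), 690 on all 18 arrays (219 and 471), and 899 to 1068 without 1 array (392 to 504 higher, 483 to 634 lower). Quantile normalization gave 1053 and 1380 genes and the mean of probes 1008 and 1417. The deposited order of lung 2 gave 967 genes, with the calls of Bmpr1b, Itga8, Lama4 and Tbx3 lost, and lung 2 moved by 1 row gave 1027. Both of these and the fit without heart 1 and lung 2 were chosen after seeing the data. Samples of the same replicate number did not deviate together (r of -0.046, -0.18 and 0.011), and with the replicate number as a block 956 and 1212 genes were called, 944 and 1149 of them shared with the fits above. Of the genes named here, value table calls were lost by 41 with only the 6 samples, 15 with the slide block, 7 with median scaling, 2 with quantile normalization (Nkx2-5 and Epyc) and 3 with the mean of probes (Bmpr1b, Fzd7 and Nkd1), and processed signal calls by 25 on all 18 arrays and 6 with normexp. No named gene changed direction against its call under the alternatives run. Dim genes are limited by the array background, so their differences are bounds.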
